A study of Homo sapiens with 3 samples.

Results

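Peaks of the transcription factors SOX4 and STAT6 were examined at 10 genes for acid- and stretch-sensing ion channels in Hep3B cells, a widely used human line derived from a hepatocellular carcinoma. Of these genes, ASIC1, ASIC2, ASIC3 and ASIC4 encode acid-sensing sodium channels. The others, KCNK2, KCNK3, KCNK4, KCNK5, KCNK9 and KCNK10, encode tandem-pore potassium channels. All were taken by name out of 20037 protein-coding genes, with earlier results of these data known. The labels name the cell line for all libraries and give no genotype or treatment. The 3 libraries were made by CUT&RUN, in which an antibody guides a nuclease to its target and the DNA released there is sequenced. An anti-SOX4 antibody, an anti-STAT6 antibody and a non-specific IgG gave 1 library each. Per the peak names, the IgG library was the control for both peak lists, and the values of the lists at a site are therefore not independent. Signal of the IgG library itself at these genes was not analysed here. Without replicates the values below describe these libraries only, and no p-value was computed. The question behind the libraries was which genes SOX4 and STAT6 occupy in common.

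Acid-sensing ion channels are trimeric sodium channels of the degenerin and epithelial sodium channel superfamily that open when protons accumulate outside the cell. They are known mainly from neurons, where they take part in pain and in the response to tissue acidosis. Tandem-pore potassium channels are dimers that carry the background potassium current and hold the resting membrane potential. Members of the TASK type close or open with extracellular pH, and members of the TREK and TRAAK type open when the membrane is stretched. Nerve and kidney are among the tissues in which these families have been studied most.

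Of the 10 members, 8 held peaks in both lists (80.0%, Wilson 95% interval 49.0% to 94.3%), and KCNK4 and KCNK10 held a peak in neither. Because the members were chosen with earlier results of these data known, this share does not stand for channel genes in general. The interval covers counting error only, and the shares below are no fair contrast to a random draw. Over all protein-coding genes, 6.35% had a SOX4 peak, 1.08% had a STAT6 peak and 1.03% had both. Among the 17085 protein-coding genes whose length lay between those of the shortest and the longest member, 1.05% had both. The 8 genes together held 35 SOX4 peaks and 43 STAT6 peaks, or 0.776% of the SOX4 list and 3.99% of the STAT6 list. No member had peaks of 1 antibody alone.

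To show what lay under the peaks at transcription starts, the 250 bases before 4 starts are given below, 5′ to 3′ on the strand of the gene, as RefSeq gives them in GRCh38.p14. The ASIC2 start is inside the gene and under the highest STAT6 peak of ASIC2, the KCNK2 start has the most motif matches, the KCNK3 start lay under a SOX4 but not a STAT6 peak, and the KCNK10 start had no peak. Capitals mark the letters ACAAT or ACAAAG, cores of SOX-type sites, on either strand.
ASIC2 (chr17:33293296-33293545, minus strand): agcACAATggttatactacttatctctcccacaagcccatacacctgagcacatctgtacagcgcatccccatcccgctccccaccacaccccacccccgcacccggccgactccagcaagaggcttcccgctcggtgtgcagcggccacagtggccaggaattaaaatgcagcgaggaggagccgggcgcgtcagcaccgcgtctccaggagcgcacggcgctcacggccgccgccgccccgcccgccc
KCNK2 (chr1:215005292-215005541, plus strand): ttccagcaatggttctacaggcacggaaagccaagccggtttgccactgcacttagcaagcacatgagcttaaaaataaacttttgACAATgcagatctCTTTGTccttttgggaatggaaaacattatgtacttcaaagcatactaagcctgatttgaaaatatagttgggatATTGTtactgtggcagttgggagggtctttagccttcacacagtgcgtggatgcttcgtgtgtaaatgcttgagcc
KCNK3 (chr2:26692472-26692721, plus strand): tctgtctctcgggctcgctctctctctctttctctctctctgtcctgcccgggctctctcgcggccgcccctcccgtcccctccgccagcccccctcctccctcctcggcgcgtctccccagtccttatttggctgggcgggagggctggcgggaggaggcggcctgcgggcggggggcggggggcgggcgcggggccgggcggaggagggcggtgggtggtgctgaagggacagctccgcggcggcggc
KCNK10 (chr14:88326913-88327162, minus strand): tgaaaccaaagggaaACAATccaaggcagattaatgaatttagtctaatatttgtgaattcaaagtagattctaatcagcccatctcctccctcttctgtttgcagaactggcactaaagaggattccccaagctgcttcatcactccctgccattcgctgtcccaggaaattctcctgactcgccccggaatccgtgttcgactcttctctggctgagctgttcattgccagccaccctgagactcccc

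Promoter windows, from 250 bases before to 50 after a start, were listed for 8 members, 15 windows in all. ASIC4 and KCNK9 had none. Of the 15 windows, 10 (66.7%) lay wholly inside a SOX4 peak and 8 (53.3%) met a STAT6 peak. These were the 10 windows of members with peaks. The other 5, of KCNK4 and KCNK10, could meet none, since they lie within the gene or its margin of 1000 bp, where no peak lay. Over all protein-coding genes, 0.716% of 22199 windows met a SOX4 peak and 0.423% met a STAT6 peak. The KCNK3 window and 1 of the 3 ASIC1 windows met a SOX4 peak alone.

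Of the 10 windows under SOX4 peaks 2 held a SOX-type match, and of the 5 windows without peaks 2 did. ACAAT, searched on both strands, was found in 3 of the 15 member windows and in 21.5% of all protein-coding windows. ACAAAG was found in 2 of 15 and in 13.6%. TTC and GAA with 4 bases of any kind between them, the spacing of a STAT6-type site, was found in 0 of 15 and in 5.42%. None of the motifs overlapped another in a member window. The KCNK2 window shown above held 3 matches at positions 87 to 91, 100 to 105 and 175 to 179, counted from the first base printed. The SOX4 and STAT6 summits lay 341 and 340 bp from that start, inside the gene and not at the matches. The STAT6 peak began at 215005503, past all 3 matches. No other member window held more than 1 match. The KCNK10 window without a peak held 1 match, at positions 16 to 20. GC content ranged from 42.0% in the KCNK2 window to 78.7% in the KCNK3 window among windows under SOX4 peaks.

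ASIC1, the principal proton-gated channel subunit of central neurons, lay on chromosome 12 from 50057596 to 50083622. Its 4 SOX4 peaks had fold enrichments over IgG of 190.1, 78.9, 168 and 162, from the lower to the upper end of the gene. Its 8 STAT6 peaks ranged from 10.1 to 16.4 with a median of 15.2. The SOX4 peaks covered 54.9% of the gene and the STAT6 peaks 36.4%. The highest SOX4 peak, from 50056883 to 50060688, spanned the 5′ end and was ranked 12 of 4513, and 3 separate STAT6 peaks lay inside it. A further 3 lay inside the SOX4 peak from 50076027 to 50084281, which spanned the 3′ end. At ASIC1 the STAT6 list thus divided into more pieces than the SOX4 list over the same stretches.

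ASIC2, a subunit that joins other ASIC subunits and alters their gating, lay on chromosome 17 from 33013087 to 34156768 on the minus strand and was the longest member, at 1144 kb. It held 10 peaks in each list. The SOX4 fold enrichments ranged from 57.7 to 164 with a median of 85.0, and those of STAT6 ranged from 3.29 to 21.5 with a median of 8.40. Of these peaks, 6 in each list had summits within 20 kb of the lower end, which is the 3′ end of the gene. The next SOX4 summits were 75822, 98905 and 277892 bp from that end, and the last SOX4 peak, from 34155254 to 34157974, spanned the 5′ end. The SOX4 peak with its summit at 98905 bp and the STAT6 peak inside it also overlapped the annotated gene ASIC2-AS2. The peaks of both lists at the 5′ end also overlapped LOC105371735. Between the peak at the 5′ end and its nearest neighbour, 861 kb of the gene held no SOX4 peak and 862 kb no STAT6 peak.

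The SOX4 peak of ASIC2 from 33289917 to 33293968 had a fold enrichment of 154, and the STAT6 peak inside it, from 33290446 to 33293549, had 21.5, rank 13 of 1078. Both covered the window of the internal start shown above in full. The STAT6 summit lay 131 bp from that start and the SOX4 summit 2316 bp from it. A SOX4 peak of ASIC2 from 33025164 to 33026639, with a fold enrichment of 61.1, was the only one of the 35 SOX4 peaks at members without a STAT6 peak.

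ASIC3, a subunit of sensory neurons, lay on chromosome 7 from 151048292 to 151052756 and was the shortest member, at 4465 bp. A single SOX4 peak from 151047631 to 151053461 covered all of it, with a fold enrichment of 196, the highest at any member and rank 11 of its list. The 2 STAT6 peaks inside it had 19.9 and 20.2 and covered 94.2% of the gene. The SOX4 peak ran past both ends of the gene, on one side into ABCB8.

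ASIC4, which is not opened by protons on its own, lay on chromosome 2 from 219507093 to 219538772. Its 3 SOX4 peaks had fold enrichments of 109, 94.0 and 139 and covered 37.2% of the gene. Its 5 STAT6 peaks had 13.7, 8.28, 17.6, 10.6 and 12.3 and covered 22.1%. It was the only member with peaks whose lower end lay under no peak of either list, the first SOX4 summit being 7735 bp inside the gene. The SOX4 peak from 219531020 to 219539485 was the widest at any member, at 8466 bp, and spanned the upper end. It reached into CHPF, and the first 2 peaks also overlapped ASIC4-AS1, an annotated antisense RNA gene, so that peaks there belong to both annotations.

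KCNK2, which encodes TREK, opened by stretch, heat and lipids, lay on chromosome 1 from 215005542 to 215237090. It held 8 peaks in each list, paired one to one along 232 kb. The SOX4 fold enrichments ranged from 44.2 to 143, with the lowest median of the 8 genes with peaks, 74.2, and those of STAT6 ranged from 5.45 to 14.3 with a median of 9.61. The highest of either list lay at the 3′ end, where the SOX4 peak ran from 215234082 to 215237812. Both transcription starts in the promoter table lay under peaks, the second inside the gene under the lowest SOX4 peak of any member, from 215082028 to 215084117. That SOX4 peak also overlapped the annotated gene LOC124904511. Of the 3 stretch-sensing KCNK genes, KCNK2 was the one with peaks.

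KCNK4, which encodes TRAAK, lay on chromosome 11 from 64291302 to 64300031, and KCNK10, which encodes another channel of the TREK type, lay on chromosome 14 from 88180108 to 88326912. No peak overlapped them. For KCNK4 the closest SOX4 peak, of fold enrichment 7.29, lay at a distance of 766 kb, and the closest STAT6 peak, of 5.37, at 1074 kb. Those nearest to KCNK10 were 165 kb away in both lists and lay at GPR65, with fold enrichments of 176 for SOX4 and 20.2 for STAT6. KCNK10, at 147 kb, is longer than 6 of the 8 members with peaks, and KCNK4, at 8.73 kb, is longer than ASIC3.

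KCNK3 and KCNK9 encode TASK channels, which external acid closes, and KCNK5 encodes a channel of the TALK type opened by alkaline pH. These 3 pH-gated potassium channel genes held 9 SOX4 and 10 STAT6 peaks. KCNK3, on chromosome 2 from 26692722 to 26733420, had SOX4 peaks at its ends alone, with fold enrichments of 74.5 at the 5′ end and 182 at the 3′ end. Its STAT6 peaks had 8.25 and 21.8, and the latter, from 26727393 to 26733656, was the widest and the highest STAT6 peak at any member. No peak lay in the 33.0 kb between its SOX4 peaks. The STAT6 peak near the start, from 26692812 to 26693366, began inside the gene, so the 5′ end of KCNK3 was the one member end under a SOX4 peak but not under a STAT6 peak.

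KCNK5, on chromosome 6 from 39188971 to 39229475 on the minus strand, had SOX4 fold enrichments of 115, 66.0 and 109 and STAT6 fold enrichments of 11.2, 4.76, 4.45 and 11.7. The pair of STAT6 peaks of 4.76 and 4.45 lay inside the SOX4 peak of 66.0, which ran from 39193467 to 39196656. KCNK9, on chromosome 8 from 139600838 to 139703123, had SOX4 fold enrichments of 121, 135, 85.5 and 188 and STAT6 fold enrichments of 9.42, 15.2, 12.9 and 19.0. The last of each spanned the upper end, and the SOX4 peak there ran from 139701974 to 139704832 and was ranked 13 of its list. At all 3 genes each peak spanned an end or had its summit within 20 kb of the lower end.

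**Figure D1:**
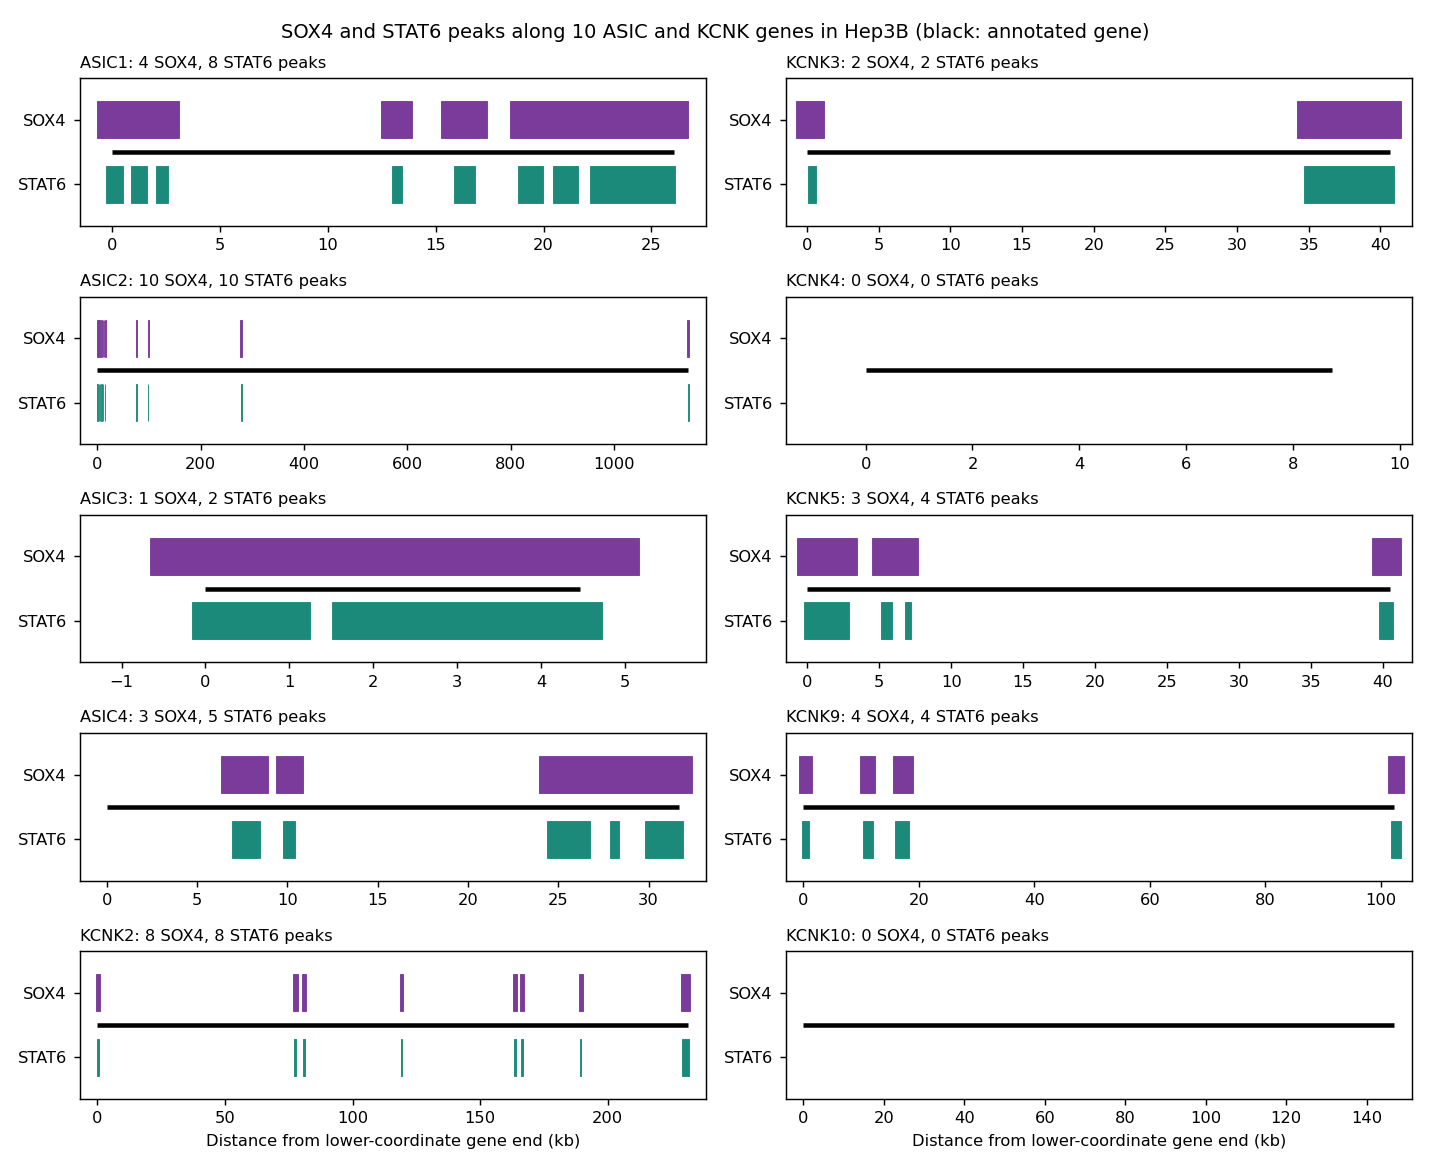
SOX4 peaks (purple, above) and STAT6 peaks (green, below) drawn to scale along each of the 10 genes (black line), by distance in kb from the gene end with the lower coordinate. The x axes differ between panels, STAT6 peaks lie under SOX4 peaks in the 8 genes with peaks (1 SOX4 peak of ASIC2 has none), and KCNK4 and KCNK10 hold none.

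The peaks at members stood high in the SOX4 list and less high in the STAT6 list. Only 640 of the 4513 SOX4 peaks in the list overlapped a STAT6 peak. No comparison with the shared peaks of other genes is given here, so the height is not shown to be particular to the members. SOX4 fold enrichments at members ranged from 44.2 to 196 with a median of 94.0, against a median of 5.88 over the list. Of the 35 SOX4 peaks, 34 had a fold enrichment of at least 50, against 586 of the 4513 in the list, and 26 were in the highest 10% of the list. STAT6 fold enrichments at members ranged from 3.29 to 21.8 with a median of 11.1, against 7.27 over the list. Of the 43 STAT6 peaks, 10 were in the highest 10% of the list and 21 in the highest 25%. Fold enrichments of the lists are on different scales, since the number of reads behind each library is unknown.

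The peaks at members were also wide against the whole lists, and here too the shared peaks of other genes were not set beside them. SOX4 peaks had a median width of 2132 bp, from 1464 to 8466 bp, against 891 bp over the list. STAT6 peaks had a median width of 825 bp, from 256 to 6264 bp, against 576.5 bp over the list. Wider peaks had higher fold enrichments, with a Spearman rho of 0.69 over the 35 SOX4 peaks and of 0.75 over the 43 STAT6 peaks. These peaks come from 8 genes and 1 library each, so the coefficients are descriptions.

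**Figure D2:**
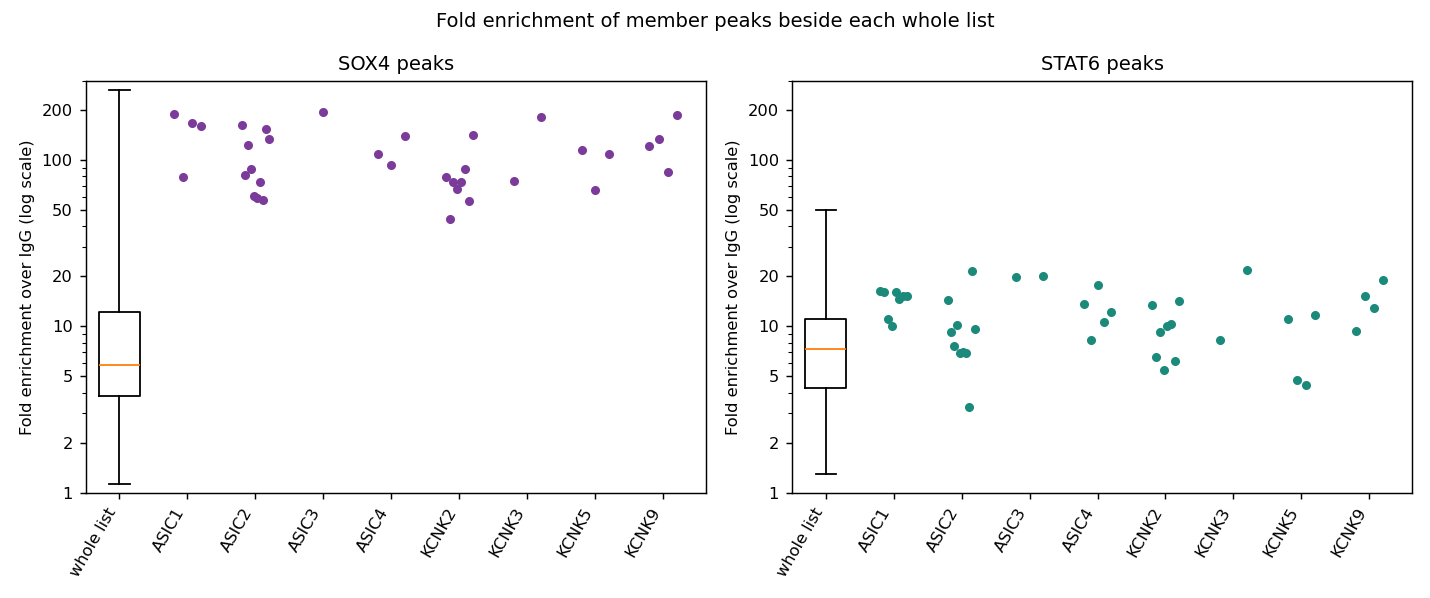
Fold enrichment over IgG (log axis) of each SOX4 peak (left) and STAT6 peak (right) at the 8 genes with peaks, as 1 point per peak, beside a box of the whole list (box, quartiles and median; whiskers, lowest and highest value). SOX4 points lie between 44.2 and 196, above the upper quartile of the list of 12.3, while STAT6 points from 3.29 to 21.8 overlap the box.

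All 43 STAT6 peaks overlapped a SOX4 peak (100%, with a Wilson 95% interval from 91.8%), and a STAT6 peak lay under 34 of the 35 SOX4 peaks (97.1%, interval 85.5% to 99.5%). The intervals treat peaks as independent, although they come from 8 genes and 1 library per antibody. They therefore do not measure the spread between genes or libraries. Over the whole lists 78.7% of STAT6 peaks overlapped a SOX4 peak and 14.2% of SOX4 peaks overlapped a STAT6 peak. Because the members were chosen with earlier results of these data known, the whole lists are no fair contrast. The same shares at the other genes with peaks in both lists are not given here. In all 43 pairs the STAT6 peak lay wholly inside the SOX4 peak, which was so for 97.2% of the 850 pairs of the whole lists. Of the SOX4 peaks, 28 held 1 STAT6 peak, 3 held 2 and 3 held 3. In the 28 pairs where each peak had 1 partner, the SOX4 border lay beyond the STAT6 border by a median of 517 bp, with quartiles of 460 and 571 bp and a range of 342 to 827 bp over both borders. The same distance was 513 bp over the one-to-one pairs of the whole lists. Summits of a pair were a median of 130 bp apart, and 24 of the 43 pairs (55.8%) had summits within 200 bp. Over the pairs of the whole lists the median was 73 bp, and 62.7% had summits within 200 bp. The largest distance, 5816 bp, was in the wide SOX4 peak at the 3′ end of ASIC1.

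Of the 16 ends of the 8 genes, 15 lay under a SOX4 peak and 14 under a STAT6 peak. Both ends lay under SOX4 peaks in 7 of the 8 genes, against 36.9% of the 198 other protein-coding genes with peaks in both lists. The 8 genes also held more SOX4 peaks, a median of 3.5 per gene against 1 at the others. Whether the shares differ at equal peak number was not tested. The SOX4 peaks reached beyond the annotated end by a median of 713 bp, with quartiles of 684.5 and 724.5 bp, and 12 of the 15 reached between 600 and 800 bp. The median was also 713 bp over the 202 ends spanned at the other genes with peaks in both lists. The STAT6 peaks reached beyond the end by a median of 211.5 bp, with quartiles of 159 and 253 bp. The exceptions were the upper end of KCNK9, with 1709 bp for SOX4 and 1126 bp for STAT6, the 5′ end of ASIC2, with 1206 and 634 bp, and the 5′ end of KCNK2, with 394 and 39 bp.

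**Figure D3:**
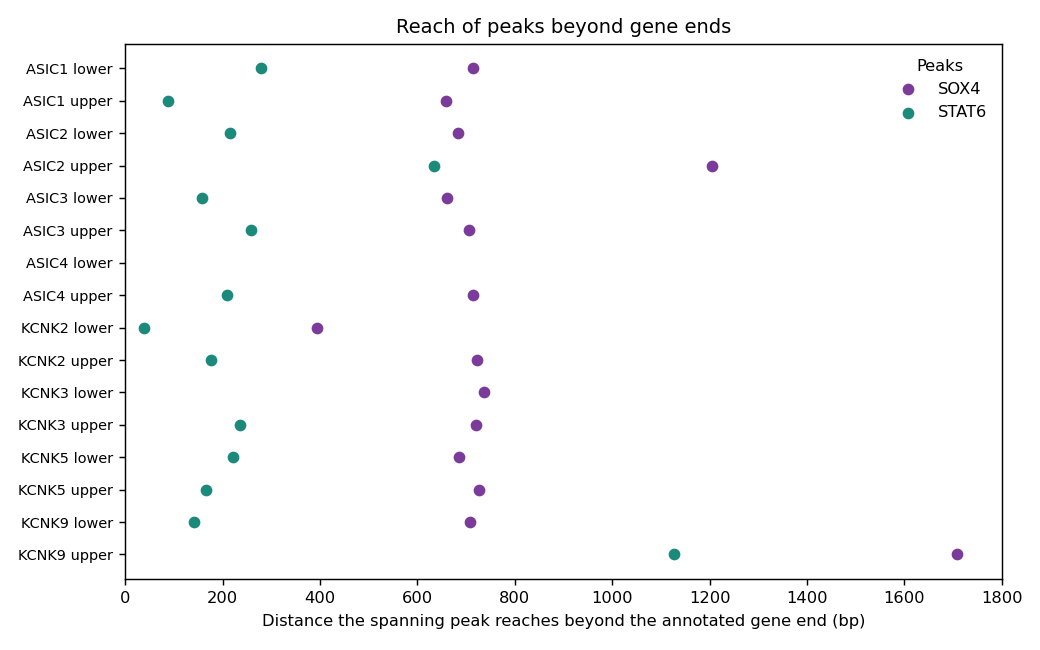
Distance in bp that the peak spanning a gene end reaches beyond it, for the lower- and upper-coordinate end of each of the 8 genes, in the SOX4 list (purple) and the STAT6 list (green). Of 15 SOX4 points, 12 lie between 600 and 800 bp, and no point is drawn where no peak spans the end.

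The 14 SOX4 peaks that spanned a gene end had a median fold enrichment of 141, against 78.9 for the 21 inside genes, and a median width of 3295 bp against 1595 bp. In each of the 8 genes the highest SOX4 peak spanned an end. At ASIC3 and KCNK3 this could not be otherwise, since every SOX4 peak there spanned an end. Among STAT6 peaks the medians were 14.4 for the 14 at ends and 10.0 for the 29 inside. The highest STAT6 peak spanned an end in 6 of the 8 genes, among them ASIC3, where every STAT6 peak did. No such count over other genes is given here. The exceptions among STAT6 peaks were ASIC2, with its internal start, and ASIC4. The promoter table gave the strand of 6 of the 8 genes. Of these, ASIC1, KCNK2, KCNK3 and KCNK5 had the wider SOX4 peak at the 3′ end. At KCNK3 it was 7261 bp wide against 1904 bp at the 5′ end, and at ASIC2 the order was the reverse, with 2395 bp against 2721 bp. At ASIC3 a single SOX4 peak covered both ends.

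Spacing varied most within ASIC2, which held both the shortest and the longest distance between neighbouring SOX4 summits, 2061 bp and 866 kb. Over the members with more than 1 SOX4 peak the distances had a median of 13037 bp over 27 distances. Neighbouring STAT6 summits were 965 bp to 863 kb apart, with a median of 4415 bp over 35 distances. The median SOX4 distance was 9.04 kb in ASIC1, 5.23 kb in ASIC2, 11.6 kb in ASIC4, 38.2 kb in KCNK2, 19.8 kb in KCNK5 and 10967 bp in KCNK9, and the single distance in KCNK3 was 34.9 kb. In KCNK2 the median STAT6 distance, 38.1 kb, was close to that of SOX4, while in ASIC1 it was 3.07 kb. Exon positions were not analysed here.

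Peaks covered a smaller share of longer members. SOX4 coverage fell in the exact order of gene length over the 8 genes, from 100% of ASIC3 to 1.72% of ASIC2, and STAT6 coverage fell from 94.2% to 0.756% (Spearman rho −0.98). Gene length is the denominator of this share, so a fall with length is largely built in. The SOX4-covered length ran only from 4465 bp in ASIC3 to 19678 bp in ASIC2. It did not follow the order of gene length, with 14285 bp in ASIC1 and 8631 bp in the longer KCNK9. The medians of coverage over the 8 genes were 19.3% for SOX4 and 14.1% for STAT6. Over the 198 other protein-coding genes with peaks in both lists they were 20.9% and 9.0%. The neighbours KCNK5 and KCNK3 in this order differed by less than 1 percentage point in SOX4 coverage, at 19.6% and 18.9%. Summed over the 10 members, SOX4 peaks covered 4.99% and STAT6 peaks 3.03% of 1776428 bp, most of which is ASIC2. Without ASIC2 these shares were 10.9% and 7.14%.

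**Figure D4:**
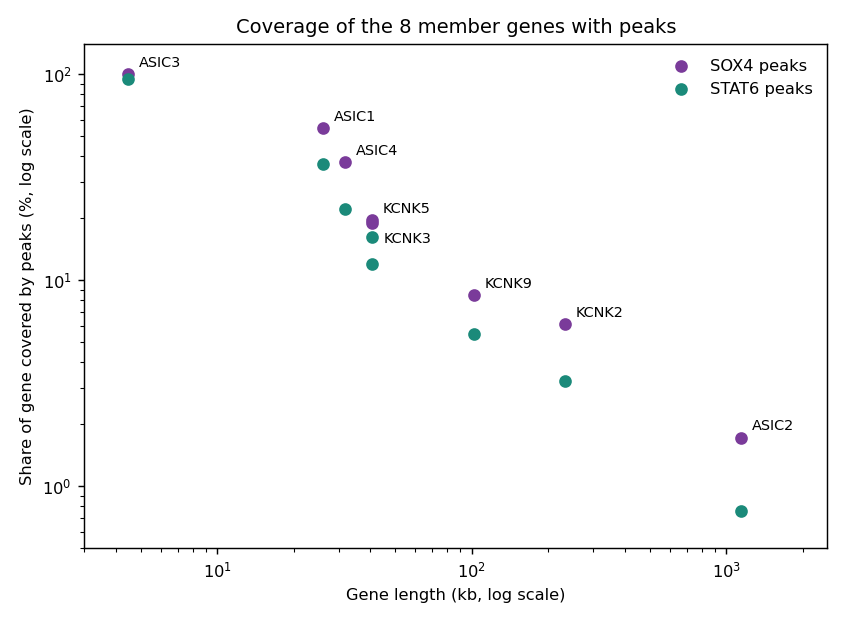
Share of each gene under SOX4 peaks (purple) and STAT6 peaks (green) against gene length in kb, both on log axes, for the 8 genes with peaks, with 1 point per gene and list. Coverage declines from 100% and 94.2% at ASIC3 to 1.72% and 0.756% at ASIC2, and gene length is also the denominator of coverage.

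Of the 16 sides of the 8 genes, 14 had no further SOX4 peak within 100 kb (87.5%), against 86.5% of the sides of all protein-coding genes and 59.3% of the 396 sides of the other genes with peaks in both lists. The median distance to the next SOX4 peak was 617 kb, against 527 kb over all protein-coding genes. One of the 2 further SOX4 peaks lay 17.1 kb beyond the 5′ end of ASIC2, where LINC01989, a long noncoding RNA gene, held a SOX4 peak of 124 and a STAT6 peak of 13.02. The other was a SOX4 peak of 3.28 located 27.6 kb beyond KCNK3. Of the 16 nearest protein-coding genes beside these members, 0 held a peak that was not also at the member. Over all protein-coding genes 6.35% had a SOX4 peak and 1.08% a STAT6 peak, so a count of 0 in 16 is near these shares. ABCB8, CDK5 and CHPF held peaks in both lists, all of them shared with ASIC3 or ASIC4. Of the 4 neighbours of KCNK4 and KCNK10, GPR65 held 2 peaks in each list.

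Peaks were then counted in related genes. Of the 10 remaining genes of the ASIC and KCNK families, KCNK1 and KCNK15 held peaks in both lists and 8 held none. KCNK1, which encodes the weakly active channel TWIK, had 8 SOX4 and 10 STAT6 peaks, up to 102 and 18.5 in fold enrichment. KCNK15, whose product carries no current on its own, had 2 SOX4 peaks up to 69.9 and 1 STAT6 peak of 6.58. ASIC5, KCNK6, KCNK7, KCNK12, KCNK13, KCNK16, KCNK17 and KCNK18 were without peaks. The whole ASIC family thus had peaks in both lists in 4 of 5 genes, and the whole KCNK family in 6 of 15, against 1.03% of all protein-coding genes.

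Other genes of acid and stretch sensing were counted by group. Over all protein-coding genes 6.35% had a SOX4 peak and 1.08% a STAT6 peak, so small groups with few or no peaks are near these shares. The 4 subunit genes of the epithelial sodium channel, SCNN1A, SCNN1B, SCNN1G and SCNN1D, had no peak, nor did the proton channel genes OTOP1, OTOP2 and OTOP3 or the acid-activated chloride channel gene PACC1. Of 6 genes for stretch-activated channels and a regulator of them (PIEZO1, PIEZO2, TMEM63A, TMEM63B, TMEM63C and STOML3), PIEZO2 had 1 SOX4 peak of 3.83 and no STAT6 peak. GPR4, GPR65 and GPR132, receptors grouped as proton-sensing, each had peaks in both lists, 8 SOX4 and 10 STAT6 peaks in total.

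**Figure D5:**
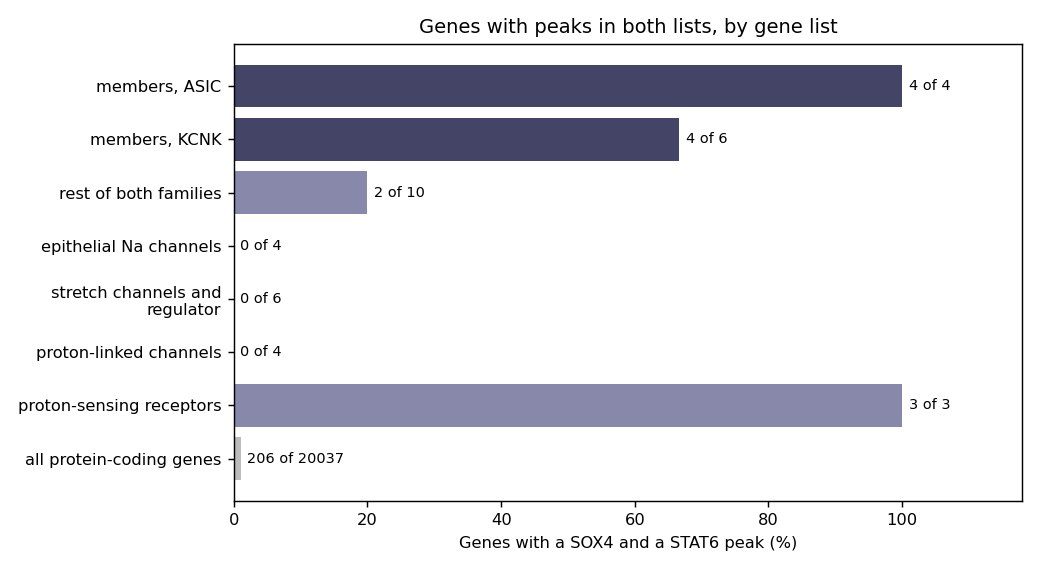
Percent of genes with both a SOX4 and a STAT6 peak in each gene list, with the number of genes printed beside each bar. All 4 ASIC members and the 3 proton-sensing receptors counted had both, against 1.03% of all protein-coding genes (grey).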

How the data were processed

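SOX4 and STAT6 occupancy was measured by CUT&RUN in Hep3B cells, with 1 library for each antibody and 1 for IgG. Per the submitters' processing notes in the labels, the reads were processed with BWA and Partek and placed on hg38. Peaks were called in Partek Flow. The calling algorithm, its threshold and the treatment of reads that match several positions are not given in the sources used here. In the deposited lists each peak has a fold enrichment, taken here as its signal relative to the IgG control. How the background in that value was computed is not given. The deposited lists also hold −log10 values of p and q, of which q served for an alternative threshold, and a deposited score that repeats q on another scale and was left out. Depth is unknown. No peak list of IgG was used here.

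Genes and promoter windows came from RefSeq tables of assembly GRCh38.p14, the same build as hg38. A peak was assigned to a gene when it overlapped the gene or 1000 bp on either side. Peaks of different lists were paired when they shared at least 1 bp. Coverage is the share of the annotated gene under peaks, without the margin. All positions are 1-based. Ranks are by fold enrichment within a list. With 1 library per antibody no p-value was computed, and each count of members is set beside the same count over all protein-coding genes on the nuclear chromosomes. Shares have Wilson 95% intervals, which cover counting error only. The 10 members and the lists of related genes were chosen with earlier results of these data known, and 1 gene of those lists is not reported here. The genes named were all members, those of the related lists with a peak in either list, and the 5 genes most like the members in coverage. Nearest protein-coding genes were counted. Beyond this rule, related genes without a peak and neighbours with one are named, a choice made after their values were seen. Counting, pairing and coverage were tested on simulated data. Python 3.11.15, numpy 2.4.6, scipy 1.17.1 and matplotlib 3.10.9 were used.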

Additional observations from a re-analysis of the deposited data

How the results depend on the processing

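For 11 results 54 alternative settings were computed, of which 44 left the value inside its interval or within a factor of 1.5 and 10 moved it. Some of the 44 could not move a value. The lowest SOX4 peak at members had a fold enrichment of 44.2, and the lowest −log10 q was 385. Thresholds of 5 on either therefore removed no SOX4 peak there. The counts of members with peaks were 8 under every alternative run. The share of STAT6 peaks at members that overlap a SOX4 peak was 30.2% when the overlap had to reach 50% of each peak and 55.8% with summits within 200 bp, and that of SOX4 peaks was 37.1% and 68.6%. Since STAT6 peaks lay inside wider SOX4 peaks, the first of these definitions removes pairs by construction. Coverage was 24.7% for SOX4 and 19.0% for STAT6 as a mean over members, and 10.9% and 7.14% without ASIC2, an alternative chosen after seeing the data. The pooled share weighs each gene by its length, whereas the mean gives each member the same weight. Leaving out ASIC2 moved the pooled shares only part of the way to these means. The median distance between neighbouring summits was 23034 bp for SOX4 and 6958 bp for STAT6 when peaks under 500 bp apart were merged, which removes short distances. With 1 library per antibody and unknown depth, differences between the lists in peak number and width cannot be told apart from differences between the libraries. No paired analysis was possible because only 1 library was made with each antibody.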

Other observations

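At the proton-sensing receptor genes counted, SOX4 peaks covered 48.5% of GPR4, 61.8% of GPR65 and 50.9% of GPR132, and STAT6 peaks covered 30.7%, 51.8% and 31.8%. Their highest SOX4 fold enrichments were 125, 176 and 158, and their highest STAT6 fold enrichments were 13.3, 20.2 and 18.9. GPR65 and GPR132 lie on chromosome 14, as does KCNK10, which had no peak.

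In the pair of SOX4-covered and STAT6-covered percent, the protein-coding genes nearest to the median of the 8 members with peaks (19.3% and 14.1%) were MICB, MICA, C1orf167, P2RX5 and NTSR1. Their distances from it were 2.43, 2.52, 2.69, 2.83 and 3.38 percentage points. MICB, MICA and C1orf167 held 1 peak in each list, P2RX5 held 5 and 5, and NTSR1 held 3 SOX4 and 5 STAT6 peaks.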
